A study of Homo sapiens with 6 samples.

Results

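Protocadherins are the largest group of the cadherin superfamily, single-pass membrane proteins whose extracellular repeats bind calcium and recognise the same protein on a neighbouring cell. The rows analysed here were those of the deposited gene table whose symbol begins with PCDH, without antisense names and pseudogenes. Of 80 such rows 9 were left out, all of them at 0 in every library, and 71 remained of 54261 rows in the table. They comprised 18 alpha, 17 beta and 23 gamma rows of the clustered family and 13 other protocadherins. The resistant group consisted of 3 libraries of total RNA from 7R, a line of 786-O cells labelled resistant to sunitinib, which is an inhibitor of several receptor tyrosine kinases. The control group consisted of 3 libraries from 786-O itself. 786-O is a widely used human clear-cell renal carcinoma line that lacks functional VHL, a lesion that a line made from it shares. 7R is a single resistant line. The labels give neither whether the drug was present at harvest nor whether the libraries are separate cultures, and p-values therefore speak only of the spread among these libraries, which can be technical.

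The clustered protocadherins lie in tandem arrays on chromosome 5. Each alpha or gamma gene has its own promoter and its own large first exon, which is spliced to constant exons shared by the whole cluster, whereas each beta gene is a single exon with no constant part. Neurons express different combinations of these isoforms, which serve in self-recognition between their branches. The other protocadherins are scattered in the genome and include the delta group, which acts in cell adhesion and migration.

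The resistant libraries held 38074069, 38131634 and 37919629 counts, and the control libraries 48264905, 49075320 and 52221491. A count of 0 allows up to 3 counts, which is 0.0663 to 0.0707 CPM, or counts after scaling each library to the same total. Resistant replicate 1 stood apart from its group, with chi-square statistics, divided by their degrees of freedom, of 62.9 and 60.1 in its pairs and 8.94 in the pair without it. Control replicate 1 gave 26.5 and 35.5 in its pairs, and the pair without it 12.4. Levels below are CPM scaled by TMM factors, given as mean ± SD with n = 3, and fold changes are resistant over control. The adjusted p-values are those of edgeR's test (quasi-likelihood) with Benjamini-Hochberg adjustment over the genes tested in each fit, 16642 as reported and 13962 after the GC and length adjustment. The median log2 fold change of all tested genes was 0.05 on this scale, and 0.39 when libraries were scaled by their totals alone. Since the median fold change differed between genes of different GC content, as given below, values are also given after an adjustment for GC content and length.

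Every one of the 16 alpha, 16 beta and 22 gamma rows that carry the symbol of a single clustered gene was listed at 0 in all 6 libraries, as was PCDHACT. The counts of the clusters stood in 3 rows named for a whole cluster, PCDHA with 14 counts over all libraries, PCDHB with 901 and PCDHG with 1704. RefSeq holds locus records of these names that span all genes of each cluster, 17, 19 and 24 of which have a row in the table, all at 0. The same layout was found at the UGT1A locus, another array with shared exons, where the row UGT1A held 20820, 29105 and 28989 counts in resistant libraries and 6681, 5323 and 6157 in control libraries while all 9 rows of single UGT1A genes were at 0. A 0 in a single clustered gene's row therefore does not show that the gene was silent, and the share of each isoform within a cluster could not be given. Each cluster row may also hold reads of the pseudogenes, antisense transcripts and introns within its span.

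The genes of the alpha and of the gamma cluster share their coding ends. In the GENCODE release 29 transcripts, the coding sequences of 15 alpha genes ended in the same 456 bases, a median of 16% of coding sequences of 2808 to 3021 bases. The coding sequences of 22 gamma genes ended in the same 372 bases, a median of 13.3% of coding sequences of 2769 to 2886 bases. The first 60 bases of each shared end are shown to compare the constant parts of the clusters.
Shared alpha coding end: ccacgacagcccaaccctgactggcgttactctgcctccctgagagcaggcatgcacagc
Shared gamma coding end: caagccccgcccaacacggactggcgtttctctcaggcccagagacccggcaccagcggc

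Most clustered genes, of all 3 clusters, have a conserved element before the start site, bound by the looping factor CTCF, whose core is CGCT. CGCT was searched in the RefSeq promoter windows (GRCh38.p14, around each start site). It was found on the transcribed strand of 12 of 13 alpha, 14 of 14 beta and 20 of 20 gamma promoters for which an entry matched, against 6 of 11 other protocadherin promoters and 54.1% of all 27305 promoters. On either strand it was in 46 of 47 clustered, 10 of 11 other protocadherin promoters and 69.4% of all promoters. For each cluster the element is shown for the first 3 genes in chromosome order with a single CGCT on the transcribed strand, with the core in capitals and all on the plus strand of chromosome 5. The core lies before the RefSeq start in each but PCDHB8, where it lies 3 bases after it.
PCDHA1, chr5:140786088-140786113: tggccacatgatgtCGCTgtacacca
PCDHA2, chr5:140794783-140794808: tagccacatgatgtCGCTgtccacca
PCDHA4, chr5:140806981-140807006: gagccacatgatgtCGCTctttacca
PCDHB5, chr5:141135181-141135206: aggacgcctggtggCGCTgcaggcta
PCDHB7, chr5:141172568-141172593: aaaacgcaaggtggCGCTgctggcta
PCDHB8, chr5:141177779-141177804: aggacccgtggtggCGCTgcaggata
PCDHGA1, chr5:141330405-141330430: aggactgtgggcgcCGCTgttcacta
PCDHGA2, chr5:141338705-141338730: aggcctctgagcgtCGCTgttgacca
PCDHGA3, chr5:141343769-141343794: aggcctcttagtgtCGCTgttgacca
The clusters differed in the bases that follow the core. CGCTGT, searched after these sequences had been seen, was on the transcribed strand of 17 of 20 gamma, 1 of 14 beta and 6 of 13 alpha promoters and of 6% of all promoters. CGCTGC was in 12 of 14 beta, 3 of 20 gamma and 0 of 13 alpha promoters and in 13.5% of all promoters. Both 6-base words contain CGCT and so overlap the first search. Where a promoter held a single CGCT, it lay a median of 48 bases before the start in 9 alpha promoters, 60 in 9 beta promoters and 49 in 13 gamma promoters. The core of the general CTCF site was found on either strand in 1 of 47 clustered and 2 of 11 other protocadherin promoters and in 2.5% of all promoters. The clustered promoters were poor in GC, with a median of 37.3% in alpha, 40.8% in beta and 42% in gamma genes, against 58% in the other protocadherins and 58.3% in all promoters. These matches describe letters in a window and are no measurement of binding or of expression in either line.

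**Figure D1:**
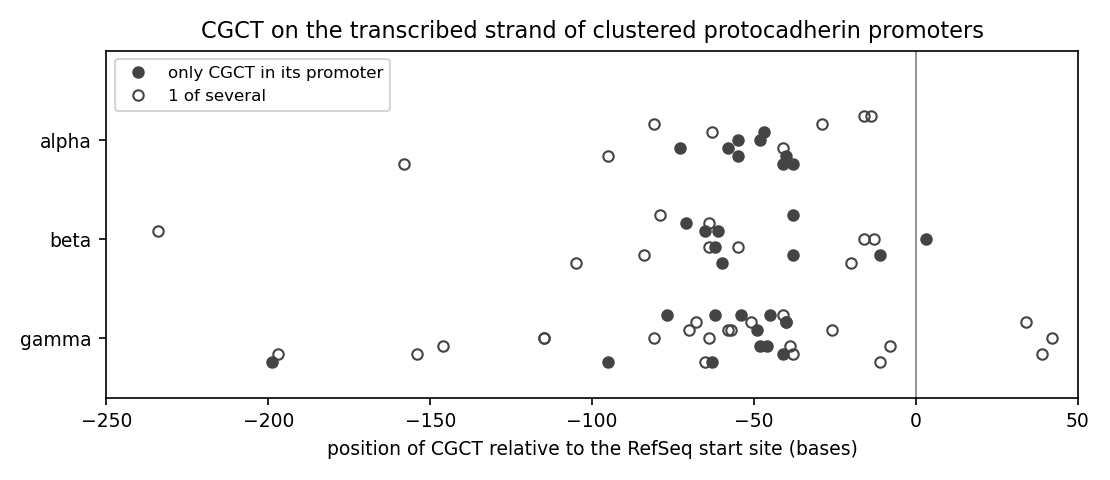
Position of CGCT on the transcribed strand of RefSeq promoters of clustered protocadherins, in bases relative to the start site, 1 line of points per cluster. Filled points are the only CGCT of their promoter and open points 1 of several, and the filled points gather at medians of 48 (alpha), 60 (beta) and 49 (gamma) bases before the start.

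Of the 71 rows, 12 had counts in at least 1 library and 6 passed the filter on low counts, the cluster rows PCDHB and PCDHG and the genes PCDH7, PCDH9, PCDH10 and PCDH20. PCDH20 passed through its resistant libraries alone, so a difference was built into its passing. Called were 5 of the 6, with PCDH20, PCDH9 and PCDHG higher and PCDH7 and PCDHB lower in the resistant line. Among all tested genes 76.2% were called, 39.3% higher and 36.9% lower, so the share of called members is near the background and the direction and size of each member carry the description. After adjustment for GC content and length 4 of the 6 were called (PCDH20 and PCDHG higher, PCDH7 and PCDHB lower), where 66.9% of tested genes were called, 34.4% higher and 32.6% lower. The groups did not overlap for the 5 called rows, nor for 80.3% of all tested genes. The counts of all protocadherins together showed no such split, with a summed CPM of 17.2, 21.2 and 21.2 in resistant libraries against 23.0, 20.7 and 20.8 in control libraries. These groups overlapped, while the makeup of the sum differed between the lines. PCDHG held 42.6% ± 1.75 of all protocadherin counts in resistant libraries and 21.4% ± 1.23 in control libraries, and PCDH7 held 6.33% ± 2.87 in resistant and 42.9% ± 1.75 in control libraries. PCDH20 held 15.5% ± 4.87 in resistant and 0.104% ± 0.106 in control libraries. In bulk RNA, fewer cells with a transcript and less of it per cell cannot be told apart.

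**Figure D2:**
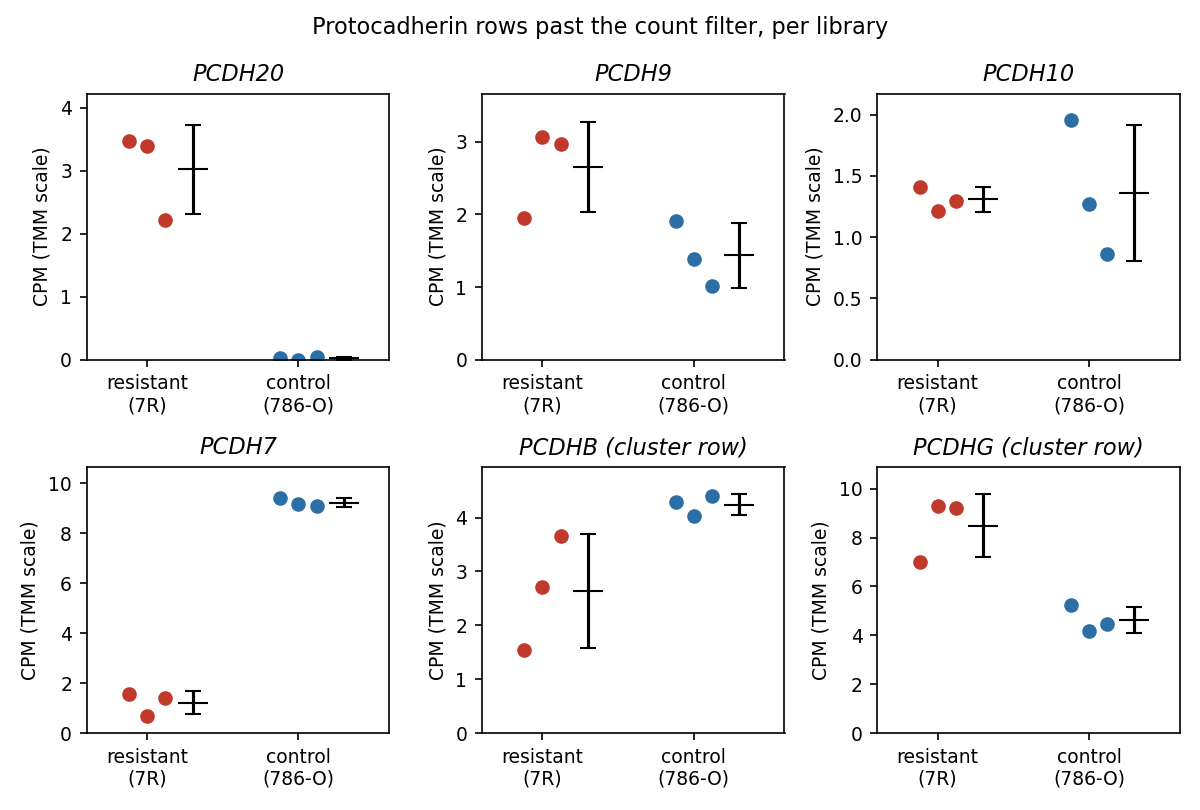
CPM on the TMM scale of the 6 protocadherin rows past the count filter, in each resistant (7R, red) and control (786-O, blue) library, with the mean and SD of 3 libraries as bars beside the points. Resistant libraries lie above all control libraries for PCDH20, PCDH9 and PCDHG and below them for PCDH7 and PCDHB, and PCDH10 overlaps.

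PCDH20 was near the limit of detection in the control line and measurable in every resistant library. It had 150, 145 and 94 counts in resistant libraries and 1, 0 and 2 in control libraries. The mean was 3.03 ± 0.703 CPM in the resistant line and 0.0223 ± 0.0221 CPM in the control line, whose mean is under the limit that a count of 0 allows. The summed counts, 389 against 3, gave a ratio of 134 with a 95% interval for counting error of 45.5 to 652. The fitted log2 fold change was 6.89 ± 0.53 (SE, adjusted p = 4.07e-07), a value that depends on the prior count because the control counts are so few. It was 6.18 (adjusted p = 2.55e-06) after adjustment for GC content and length and 6.33 to 7.69 when single libraries were left out. PCDH20 passed the filter through its resistant libraries alone, so these adjusted p-values are no separate support for its rise. Tested genes within 2 percentage points of its GC content of 43.2% had a median log2 fold change of 0.76. Per kilobase of transcript, PCDH20 had the highest mean level of the other protocadherins in the resistant line, at 0.633 CPM per kb against 0.00467 in the control line, with libraries that overlapped those of PCDH9 (0.445 in the resistant line). TDRD3, the nearest tested gene before PCDH20 on chromosome 13, lies 836 kb away. It also rose, by a log2 fold change of 1.38 ± 0.16 (adjusted p = 9.17e-06), and by 0.44 after the adjustment. DIAPH3, the next tested gene before it, rose by 1.05, but had 0.07 after the adjustment (adjusted p = 0.438, edgeR). On the other side, HNRNPA3P5 rose by 1.02, but had 0.28 after the adjustment (adjusted p = 0.475, edgeR). DACH1, further on, rose by 3.46 and by 2.69 after the adjustment. A local effect was not tested.

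PCDH7, a delta protocadherin whose cytoplasmic tail binds the phosphatase PP1, fell. It had 67, 30 and 60 counts in resistant libraries and 415, 398 and 411 in control libraries. All resistant libraries lay far below all control libraries, which hardly differed among themselves. The mean was 1.22 ± 0.456 CPM in the resistant line and 9.23 ± 0.180 CPM in the control line. The fitted log2 fold change was -2.91 ± 0.25, or 7.53-fold lower in the resistant line (adjusted p = 8.7e-07), and -2.58 (adjusted p = 3.25e-06) after adjustment for GC content and length, where tested genes of like GC content (52.1%) had a median of -0.48. Per kilobase, PCDH7 had 0.225 CPM per kb in the resistant line and 1.70 in the control line, where it was the highest of the other protocadherins. Its nearest tested neighbours on chromosome 4, STIM2 at 3695 kb and ARAP2 at 4859 kb, moved the other way. STIM2, a calcium sensor of the endoplasmic reticulum, rose by a log2 fold change of 0.54 ± 0.12 (adjusted p = 9.96e-04) and ARAP2 by 2.21 ± 0.19 (adjusted p = 7.31e-07). Both kept that sign after the adjustment (0.24 and 0.99). Of the next tested genes, TBC1D19 rose by 1.74 (0.89 after the adjustment). RELL1 had -0.26 (adjusted p = 0.0351, edgeR), but 0.34 after the adjustment. A local effect was not tested.

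PCDH9, a delta protocadherin best known from the brain, had 84, 131 and 126 counts in resistant libraries and 84, 60 and 46 in control libraries. On the CPM scale these were 1.94, 3.06 and 2.97 in resistant libraries and 1.91, 1.38 and 1.02 in control libraries. The groups did not overlap, but resistant replicate 1 and control replicate 1 nearly met. The log2 fold change was 0.89 ± 0.30 (adjusted p = 0.016). It did not hold after adjustment for GC content and length, at -0.16 (adjusted p = 0.599), and genes of like GC content (41.4%) had a median of 1.02. The call was also lost without control replicate 3 (adjusted p = 0.078), without resistant replicate 2 (0.0574) or without resistant replicate 3 (0.0554).

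PCDH10, a delta protocadherin that recruits the WAVE actin-regulating complex, had 61, 52 and 55 counts in resistant libraries and 86, 55 and 39 in control libraries. The control libraries spanned all resistant libraries. Its log2 fold change was -0.06 ± 0.33 (adjusted p = 0.884), and its sign turned with the scaling, to 0.28 when scaled by library totals. Per kilobase, its level was 0.200 CPM per kb in the resistant line and 0.208 in the control line, and it lay below PCDH9 in both lines (0.445 in resistant and 0.240 in control libraries), by less than the spread between libraries in the control line.

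**Figure D3:**
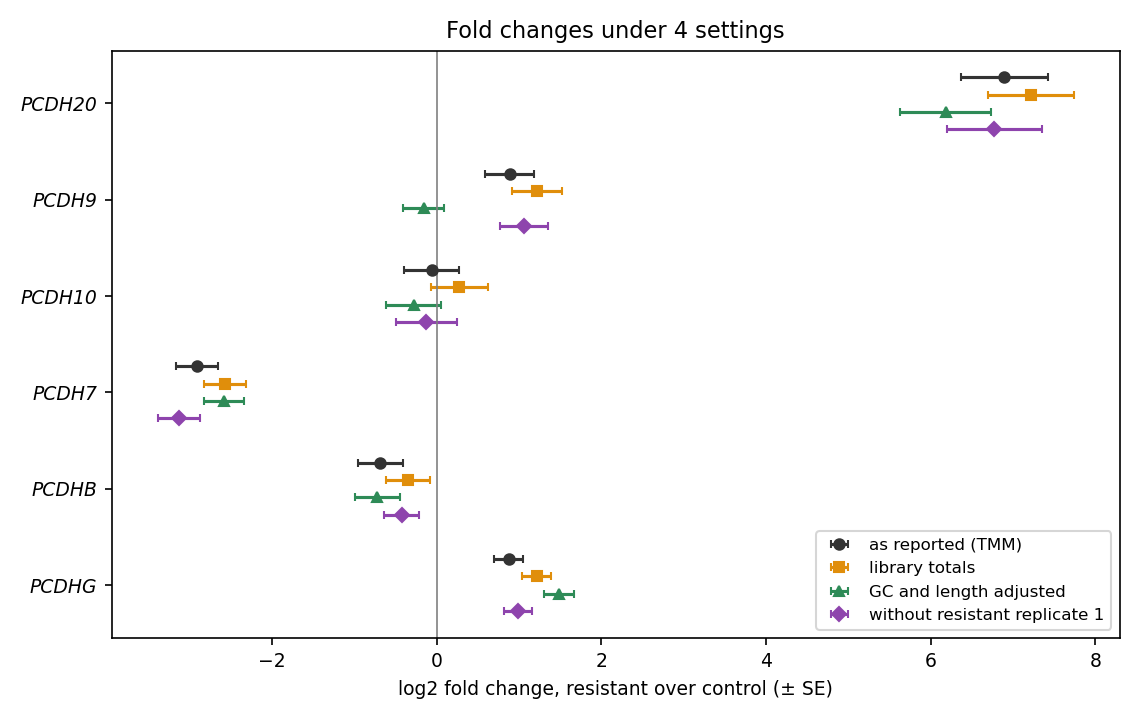
Log2 fold change of resistant over control (x axis) with its SE for the 6 tested protocadherin rows, as reported, scaled by library totals, adjusted for GC content and length, and without resistant replicate 1. PCDH20, PCDH7 and PCDHG keep their direction in all 4 settings, while PCDH9 turns from 0.89 to -0.16 after the adjustment and PCDH10 changes sign with library totals.

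The remaining protocadherins outside the clusters were at or near the limit of detection. PCDH18, a delta protocadherin, had 2, 1 and 5 counts in resistant libraries and 8, 13 and 22 in control libraries, with no overlap between the groups. Its summed counts were 8 in resistant and 43 in control libraries, 5.20-fold lower in the resistant line with a 95% interval for counting error of 2.42 to 12.8. It failed the filter on low counts. Without that filter its log2 fold change was -2.34 (adjusted p = 0.0217, edgeR), where 22.6% of 28271 genes were called lower. PCDH1, a delta protocadherin of airway and other epithelia, had 6, 29 and 7 counts in resistant libraries and 0, 7 and 20 in control libraries, with a ratio of 1.61 (0.968 to 2.71). PCDH12, an endothelial protocadherin, had 2, 5 and 2 counts in resistant libraries and 0, 4 and 0 in control libraries. PCDH11X and PCDH17 had 1 count in the resistant and 1 in the control line each. PCDH8, PCDH11Y, PCDH15, which forms the tip links of hair cells, and PCDH19 were at 0 in every library.

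The gamma cluster rose. PCDHG had 302, 397 and 391 counts in resistant libraries and 230, 182 and 202 in control libraries. On the CPM scale these were 6.99, 9.28 and 9.21 in resistant libraries and 5.22, 4.19 and 4.46 in control libraries, with no overlap. The mean was 8.49 ± 1.30 CPM in the resistant line and 4.63 ± 0.535 CPM in the control line, a log2 fold change of 0.88 ± 0.18 (adjusted p = 6.58e-04). After adjustment for GC content and length it was 1.49 ± 0.18 (adjusted p = 2.45e-05), and genes of like GC content (53.9%) had a median of -0.67. For the cluster rows, which have no transcript of their own, GC content and length were set to the median over the cluster's coding genes, so the adjusted values rest on that choice. Of the library values alone, an exact two-sided permutation test gave p = 0.1, the smallest that 3 against 3 libraries allow.

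The beta cluster fell, by a call that several settings ended. PCDHB had 67, 116 and 155 counts in resistant libraries and 189, 175 and 199 in control libraries. On the CPM scale these were 1.55, 2.71 and 3.65 in resistant libraries and 4.29, 4.03 and 4.40 in control libraries. The groups did not overlap, the resistant libraries spread widely and resistant replicate 1, the library that stood apart, was lowest. The mean was 2.64 ± 1.05 CPM in the resistant line and 4.24 ± 0.187 CPM in the control line, a log2 fold change of -0.69 ± 0.27 (adjusted p = 0.0366, and -0.72 with adjusted p = 0.0347 after adjustment for GC content and length). The call was lost without resistant replicate 1 (-0.42, adjusted p = 0.0839), without control replicate 1 (adjusted p = 0.0552), control replicate 3 (0.0684) or resistant replicate 2 (0.0586), and when libraries were scaled by totals (-0.34, adjusted p = 0.264). The exact two-sided permutation test gave p = 0.1. PCDHA had 2, 1 and 4 counts in resistant libraries and 1, 6 and 0 in control libraries, a ratio of 1.03 with a 95% interval of 0.309 to 3.45, so a difference was not detectable at this depth.

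A factor that scales a whole library cancels in the ratio of gamma to beta counts. PCDHG over PCDHB, a comparison added after the values had been seen, was 4.51, 3.42 and 2.52 in resistant libraries and 1.22, 1.04 and 1.02 in control libraries. Every resistant library had the higher ratio, with a mean of 3.48 ± 0.994 in the resistant and 1.09 ± 0.110 in the control line (exact two-sided permutation p = 0.1, the smallest possible). PCDHG was higher and PCDHB lower in every resistant library, so this separation and its p were fixed in advance and add no support. Leaving out single libraries gave log2 differences of 1.43 to 1.85, against 1.64 with all libraries, and adjustment for GC content and length gave 2.28. The ratio shows that the rows changed unequally, not which of them changed. Tested protein-coding genes around the arrays were set beside PCDHG. TAF7, a subunit of the general transcription factor TFIID that lies between the beta and gamma genes, rose by a log2 fold change of 0.46 ± 0.15 (adjusted p = 0.0137) but had -0.06 after adjustment for GC content and length. DIAPH1, the actin nucleator next to the end of the gamma cluster, had -0.21 ± 0.10 (adjusted p = 0.0677) and -0.03 after the adjustment, and its sign turned to 0.14 with library totals. HDAC3, further on, fell by 1.11 on the log2 scale (adjusted p = 5.55e-06) and by 0.47 after the adjustment.

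**Figure D4:**
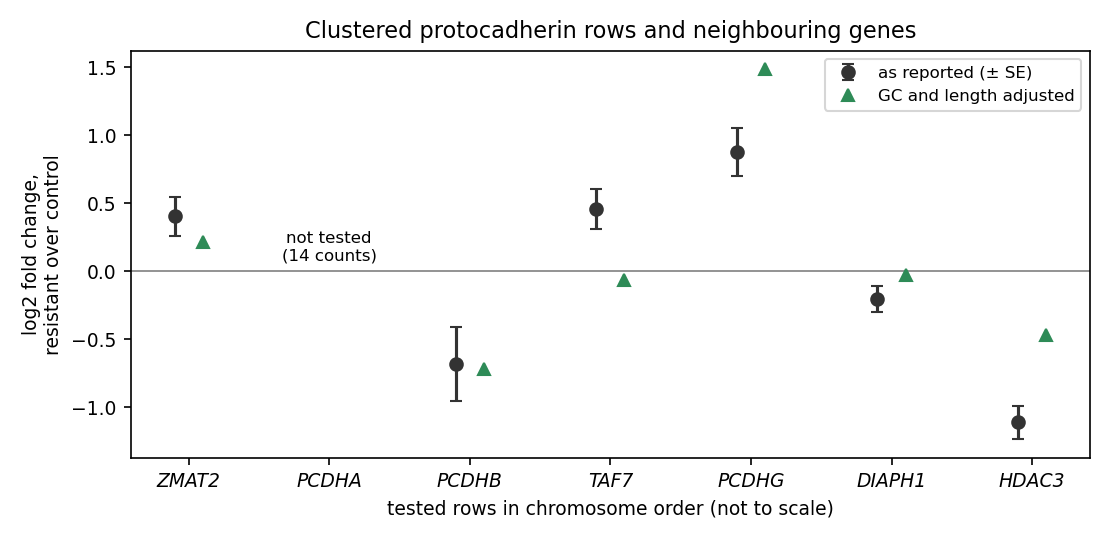
Log2 fold change of resistant over control (y axis) for the cluster rows and tested protein-coding genes around them, in chromosome order and not to distance, as reported with the SE (black) and after adjustment for GC content and length (green). PCDHG has 0.88 and 1.49, while TAF7 and DIAPH1 on either side of it lie within 0.1 of 0 after the adjustment, and PCDHA had too few counts to test. The adjusted values of the cluster rows rest on the GC content and length set for them, the median over the cluster's coding genes.

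The genes that shape the clusters were described as a list of CTCF, cohesin and their loaders and releasers, which together bring an enhancer to a chosen promoter. Of 13 tested, 10 were higher and 3 lower, with a median log2 fold change of 1.5 beside 0.05 for all tested genes. Of all tested genes 39.3% were called higher and 36.9% lower. After adjustment for GC content and length 8 were higher and 2 lower, with a median of 0.30 beside 0.02. Of all tested genes 34.4% were then higher and 32.6% lower. With library totals 10 genes of the list were higher and 2 lower, where 47.2% of all tested genes were higher and 28.4% lower. STAG2, a cohesin subunit, had 141 ± 32.5 CPM in the resistant line and 32.8 ± 3.49 in the control line, a log2 fold change of 2.10 ± 0.17 (0.82 after the adjustment). PDS5A and PDS5B, which regulate cohesin's release, rose by log2 fold changes of 1.61 and 1.71 (0.91 and 0.28 after the adjustment). WIZ, a zinc-finger protein found with CTCF and cohesin, fell by 1.57 on the log2 scale and by 0.26 after the adjustment. CTCF itself, named here although it fell outside the naming rule, had 74.9 ± 4.03 CPM in the resistant line and 98.0 ± 6.0 in the control line, a log2 fold change of -0.39 ± 0.10 (adjusted p = 0.00437, -0.69 after the adjustment). With library totals CTCF had -0.05 (adjusted p = 0.712).

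Genes that silence the clusters or set their DNA methylation formed a list of 11 tested genes, of which 7 were higher and 3 lower, with a median log2 fold change of 0.33, and 6 were higher and 3 lower after adjustment for GC content and length. With library totals 7 were higher and 1 lower. Beside these counts, 39.3% of all tested genes were higher and 36.9% lower. These shares were 34.4% and 32.6% after the adjustment, and 47.2% and 28.4% with library totals. SMCHD1, a chromatin protein whose loss in mice raises clustered protocadherins, had 142 ± 25.6 CPM in the resistant line and 35.2 ± 4.19 in the control line, a log2 fold change of 2.02 ± 0.15 (0.59 after the adjustment). DNMT3B, the methyltransferase that methylates these promoters in mouse development, had 71.2 ± 3.73 CPM in the resistant line and 34.6 ± 0.241 in the control line, a log2 fold change of 1.04 ± 0.10 (1.67 after the adjustment). TET2, which oxidises methylated cytosine, rose by 1.56 ± 0.16 (0.40 after the adjustment). LRIF1, a partner of SMCHD1, rose by 1.27 ± 0.16, but its call was lost after the adjustment (0.22, adjusted p = 0.0906). Log2 fold changes of the list genes named here and below passed the edgeR test at 0.05, before and after the adjustment, unless a larger p or a lost call is given beside them.

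Partners on the inside of the membrane, such as the kinases that clustered protocadherins inhibit and the WAVE complex that delta protocadherins recruit, moved in both directions. Of 18 tested, 8 were higher and 8 lower (median log2 fold change 0.02), and 10 higher and 4 lower with library totals. After adjustment for GC content and length 4 were higher and 7 lower (median -0.07). Of all tested genes 39.3% were higher and 36.9% lower, 47.2% and 28.4% with library totals, and 34.4% and 32.6% after the adjustment. WASF3, a WAVE subunit, had 11 ± 0.820 CPM in the resistant line and 0.760 ± 0.124 in the control line, a log2 fold change of 3.85 ± 0.20 (3.44 after the adjustment). PTK2, the focal adhesion kinase, which gamma and alpha protocadherins inhibit in mouse neurons, had 310 ± 12.8 CPM in the resistant line and 110 ± 10.5 in the control line, a log2 fold change of 1.5 ± 0.10 (0.97 after the adjustment). PPP1CA, the PP1 subunit bound by PCDH7, had a log2 fold change of -1.31 ± 0.11 and TAOK2, a kinase bound by PCDH8 in rat neurons, of -1.21 ± 0.10. Neither was called after the adjustment, where PPP1CA had -0.07 (adjusted p = 0.4) and TAOK2 turned to 0.06 (adjusted p = 0.501).

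Of 7 membrane partners 3 were tested, 1 higher and 1 lower, or 1 higher and 2 lower after the adjustment and 2 higher and 1 lower with library totals. NLGN1 and NLGN2, synaptic adhesion proteins that gamma protocadherins inhibit in mouse neurons, changed in opposite directions. NLGN1 had 52.9 ± 8.57 CPM in the resistant line and 14.9 ± 1.17 in the control line, a log2 fold change of 1.83 ± 0.14 (0.61 after the adjustment), and NLGN2 had 16.5 ± 1.23 in the resistant line and 72.8 ± 4.19 in the control line, a log2 fold change of -2.14 ± 0.11 (-0.75 after the adjustment). Among 17 related cadherins of the FAT, dachsous, CELSR, CDHR and calsyntenin families 10 were tested, 2 higher and 6 lower (median log2 fold change -0.50), or 3 higher and 4 lower after the adjustment. With library totals these were 4 higher and 4 lower. Beside both lists, 39.3% of all tested genes were higher and 36.9% lower. These shares were 34.4% and 32.6% after the adjustment, and 47.2% and 28.4% with library totals. FAT2 rose by 1.61 ± 0.20 (1.71 after the adjustment). The planar polarity cadherins CELSR1, CELSR2 and CELSR3 had log2 fold changes of -1.41 ± 0.10, -1.11 ± 0.12 and -2.04 ± 0.19, each past the test. After the adjustment these were -0.43, -0.17 and -1.07, and CELSR2 was no longer called (adjusted p = 0.0618). With adjustment for GC content alone CELSR1 was not called either, at -0.098 (adjusted p = 0.192). CELSR2 then had 0.13 (adjusted p = 0.148) and CELSR3 -0.71 (adjusted p = 0.0102).

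Because the labels' extraction text names a brain region and the other labels name renal cancer cells, markers of brain and other cell types were measured beside these results. Of 12 neuron markers 7 were tested, with 2 higher and 3 lower, or 3 higher and 3 lower after adjustment for GC content and length. Their median log2 fold change turned from -0.57 to 0.47 with that adjustment. NEFM, GAD2 and STMN2 were at 0. All 12 summed to 142 to 164 CPM in resistant and 395 to 433 CPM in control libraries. Most of that sum was TUBB3, at 62.3 ± 2.80 CPM in the resistant and 305 ± 21.5 CPM in the control line, and NEFL, at 69.9 ± 9.40 in the resistant and 103 ± 8.25 in the control line, while SNAP25 and MAP2 rose by log2 fold changes of 1.96 and 1.49. The 6 astrocyte markers summed to 10.01 to 12.4 CPM in resistant and 3.53 to 3.601 CPM in control libraries (3 higher of 3 tested). Most of that sum was GJA1, at 9.16 ± 1.11 CPM in the resistant and 3.32 ± 0.202 CPM in the control line. AQP4 had 12, 17 and 17 counts in resistant and 0, 0 and 0 in control libraries. SLC1A3 had 90, 64 and 38 in resistant and 5, 9 and 6 in control libraries. Both passed the filter through their resistant libraries alone, so a difference was built into their passing. The other astrocyte markers were near the limit of detection and not tested. GFAP had 2, 0 and 0 counts in resistant and 0, 8 and 0 in control libraries. ALDH1L1 had 0, 0 and 0 in resistant and 0, 1 and 0 in control libraries, and SLC1A2 had 0, 2 and 4 in resistant and 1, 1 and 1 in control libraries. The 6 oligodendrocyte markers summed to 37.7 to 41.2 CPM in resistant and 22.5 to 27.3 in control libraries (1 higher of 1 tested), with MOG, OLIG1 and OLIG2 at 0, and MBP made up most of it (39.4 ± 1.77 CPM in the resistant and 25.1 ± 2.44 in the control line). The 6 microglia and macrophage markers summed to 8.97 to 10.9 CPM in resistant and 45.0 to 55.3 in control libraries (2 lower of 2 tested), with P2RY12, AIF1 and PTPRC at 0. CD68 made up most of it, at 9.24 ± 0.962 CPM in the resistant and 42.1 ± 3.79 CPM in the control line. Endothelial markers summed to 0.801 to 1.15 CPM in resistant and 0.273 to 1.02 in control libraries (0 called of 1 tested). Fibroblast markers summed to 19.4 to 42.6 in resistant and 5.34 to 6.59 in control libraries. Of 3 fibroblast markers tested 1 was higher and 1 lower, or 1 higher and 0 lower after the adjustment. LUM had 30.3 ± 12.4 CPM in the resistant and 1.69 ± 0.149 CPM in the control line. The 12 renal carcinoma markers summed to 3627 to 4562 CPM in resistant and 12827 to 14054 CPM in control libraries (0 higher and 8 lower of 11 tested, and 3 higher and 5 lower after adjustment for GC content and length), with VIM at 2406 ± 334 CPM in the resistant and 9987 ± 412 CPM in the control line. PAX8, the renal lineage factor, had 407 ± 8.89 CPM in the resistant and 545 ± 47.2 CPM in the control line, a log2 fold change of -0.42 (adjusted p = 0.00202) that was -0.07 with library totals (adjusted p = 0.5) and 0.51 after the adjustment (adjusted p = 9.72e-05). Beside the marker counts, 39.3% of all tested genes were called higher and 36.9% lower, or 34.4% and 32.6% after the adjustment. The part of these markers in the protocadherin values was not tested.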

How the data were processed

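The values are raw counts as the authors deposited them, 1 column for each library, matched to the labels by title. HISAT2 2.0.4 was used, per the submitters' processing notes. How and with which strand setting reads were counted, and on which build and annotation, is not given in the sources used here. Reads of overlapping, antisense and near-identical genes therefore cannot be told apart. Genes were filtered with filterByExpr, scaled by TMM (factors 1.12 to 1.14 in resistant and 0.867 to 0.912 in control libraries) and tested with edgeR 4.0.16 (R 4.3.3) at an adjusted p of 0.05, with no covariate. Intervals and floors cover counting error only. GC content and length came from GENCODE release 29 (83.9% of tested genes had a value) and entered as an offset from natural splines with 6 and 5 degrees of freedom. Alternatives were DESeq2 1.42.0, other scalings and filters, a replicate block and single libraries left out. The alpha sum used a pseudocount of 0.05 CPM. Promoters were taken from RefSeq by symbol, 1 per gene.

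The members and lists were chosen with earlier results of these data known. Named were all members past the filter, and up to 4 called genes of each list with the smallest p. The neighbours of PCDH7, PCDH20 and PCDHG were chosen after the data were seen. Of the planned shares per isoform and the protein comparison, neither was made.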

Additional observations from a re-analysis of the deposited data

How the results depend on the processing

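Log2 fold changes of the protocadherin rows kept direction and call in 78 fits under the alternatives, and 10 kept direction but lost the call (all PCDH9 or PCDHB). The sign turned in 8. PCDH10 had 0.28 with library totals, 0.0079 with upper-quartile factors, 0.0069 with the replicate block and 0.25 without control replicate 1 (-0.33 to 0.25 without single libraries). PCDH9 had -0.16 with GC and length adjustment, -0.066 with GC alone, -0.15 with GC, length and block, and -0.044 with GC and length without resistant replicate 1. In each of these fits PCDH9 lost its call as well. Of the genes that are no member, CELSR2 had 0.13 with GC alone, DIAPH1 0.14 with library totals and 0.057 with GC alone, TAF7 -0.063, -0.17, -0.054 and -0.024 and TAOK2 0.059, 0.14, 0.057 and 0.11 in the same 4 adjusted fits as PCDH9.

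Of the 5 called rows, 3 to 5 were called when single libraries were left out, 3 without control replicate 3 or resistant replicate 2. The lower clustered rows (1) numbered 0 with library totals, with upper-quartile factors (PCDHB adjusted p = 0.0505) and with GC and length adjustment without resistant replicate 1, and 0 to 1 without single libraries. The higher other protocadherins (2) numbered 1 with GC and length, GC alone, and GC, length and block, and 1 to 2 without single libraries. With GC and length without resistant replicate 1 they numbered 2, since PCDH1 was added (2.34, adjusted p = 0.0465) and PCDH9 lost. The lower other protocadherins (1) numbered 2 with no filter and with GC and length without resistant replicate 1, where PCDH18 was added, and 1 to 2 without single libraries, since fewer libraries let PCDH18 pass the filter. In the filtered fits PCDH18 passed through its control libraries alone, so a difference was built into its passing and these calls are no separate support for its fall. The gamma sum (0.87) was 1.21 with library totals, 1.47 with GC and length with or without block, 1.505 with GC alone and 1.64 with GC and length without resistant replicate 1, and the log2 gamma over beta ratio (1.64) was 2.28 with GC and length. The cause was not tested. The alpha sum had no adjusted value, since PCDHA was not tested. PCDH20, PCDH7 and PCDHG were called in every fit run, though for PCDH20 a difference was built into passing the filter. DESeq2 called the same number in each class.

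Replicate numbers did not pair the libraries (correlations of deviations -0.13, -0.01 and -0.06). With a replicate block, PCDHB had -0.75 (adjusted p = 0.0304), PCDH9 0.90 (0.0354) and PCDHG 0.87 (0.00368), and 5 rows were called. The adjustment chosen with resistant replicate 1 left out, and the gamma over beta comparison, were added after seeing the data. PCDHA, PCDH12, PCDH11X and PCDH17 had too few counts for the filter in each filtered fit, and PCDH1 in the fit with all libraries.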
